A study of Caenorhabditis elegans with 3 samples.

Results

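The Argonaute genes of the small RNA pathways were followed across development in Caenorhabditis elegans, strain N2. The 10 genes alg-1, alg-2, alg-3, alg-4, prg-1, csr-1, ergo-1, wago-1, hrde-1 and rde-1 were taken by their symbol in the deposited names. Of these, 9 were analysed, out of 19194 genes in all, and alg-2 was not analysed here. Polyadenylated RNA of embryos of mixed stages, of L1 larvae (the first larval stage after hatching) and of young adults was read as native strands on a nanopore device. Each stage is 1 library of the same strain, with no treatment or allele named, so no difference between stages has a replicate check, and no p-value is given. The study is titled around transcript complexity during development, and the stages are compared here for the level of each gene and then for its isoforms.

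Argonaute proteins hold a short RNA and use it to find complementary transcripts, which they cut, silence or, in the case of CSR-1, license. In this worm the family is large, and its branches are tied to tissues. PRG-1 is the Piwi protein that binds piRNAs in the germline. CSR-1 binds small RNAs antisense to expressed germline genes. WAGO-1 carries secondary small RNAs that silence transcripts in the germline, and HRDE-1 carries such RNAs into germline nuclei and is needed for silencing to be inherited. ERGO-1 binds endogenous primary small RNAs in oocytes and embryos, while ALG-3 and ALG-4 do so during spermatogenesis. ALG-1 is a main microRNA Argonaute, and RDE-1 receives the first small RNAs cut from foreign double-stranded RNA. By these roles prg-1, csr-1, wago-1, hrde-1, ergo-1, alg-3 and alg-4 are taken as the 7 germline genes, and alg-1 and rde-1 as the 2 somatic ones that were analysed. RDE-1 acts in many tissues, germline included, so that division is a working one.

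Depth came to 941707 estimated reads for embryos, 1017061 for L1 larvae and 1611049 for young adults. A level is given in RPM, a gene's reads for each 1000000 estimated reads of its own library, and bracketed ranges are 95% intervals for counting error only. Where no read was seen, up to 3 reads are still allowed, a floor of 3.19 RPM in embryos, 2.95 in L1 larvae and 1.86 in young adults. Transcripts of adult reproduction were present in the L1 library, although L1 larvae make neither sperm nor yolk. Summed over 29 major sperm protein genes, there were 3 reads in embryos, 609 in L1 larvae and 11720 in young adults. The 6 yolk protein genes had 0, 524 and 8918 reads in the same order of stages. Per total reads, the L1 level was 8.23% of the young adult level for the sperm genes and 9.31% for the yolk genes. The comparison of young adults with embryos makes no use of the L1 library. Of a list of 10 germline genes all 10 had reads in each library, with summed levels of 409 RPM in embryos, 154 in L1 larvae and 1055 in young adults. The 5 genes of a muscle, nerve and gut list all had reads in each library as well, with summed levels of 390, 1594 and 231 RPM from embryo to young adult. Its nerve genes flp-1 and egl-3 were highest in L1 larvae, at 671 and 578 RPM. The muscle gene myo-3 and the gut gene elt-2 were highest in embryos, at 212 and 47.8 RPM. The other muscle gene, unc-54, was instead lowest in embryos, at 92.4 RPM, with 149 in L1 larvae and 134 in young adults. In whole animals, fewer germ cells and less RNA per germ cell cannot be told apart.

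Of the 7 germline Argonaute genes, 6 had their highest level in young adults, and ergo-1 had its highest in embryos. On library totals the level was lowest in L1 larvae for prg-1, wago-1, hrde-1 and ergo-1, though with edgeR TMM and DESeq2 size factors prg-1 and hrde-1 were lower in embryos than in L1 larvae. It was lowest in embryos for csr-1 and alg-4, while alg-3 had reads in young adults alone. Both somatic genes had their highest level in embryos and their lowest in young adults on library totals, and rde-1 was highest in L1 larvae with the other 2 scalings.

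**Figure D1:**
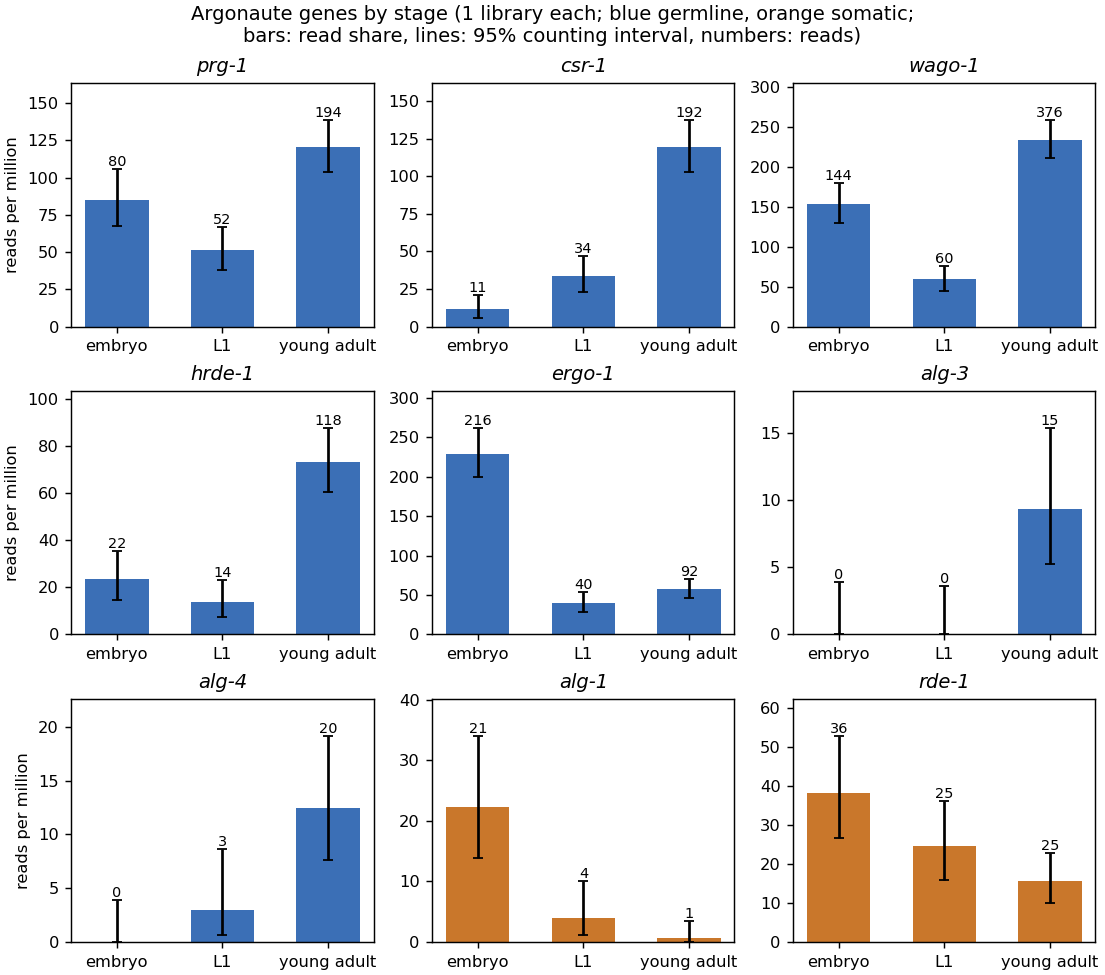
Level of each of the 9 Argonaute genes in RPM (bars) in the embryo, L1 and young adult libraries, with 95% counting intervals (lines) and the reads behind each bar (numbers); each panel has its own vertical scale starting at 0. The bar of ergo-1 is tallest in the embryo library, with 216 reads, and that of csr-1 in the young adult library, with 192 reads.

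The Piwi gene prg-1 (D2030.6; chromosome I, 7585329 to 7588367, minus strand, WBcel235) had 80 reads in embryos, 52 in L1 larvae and 194 in young adults. Its level was 85 RPM in embryos (67.4 to 106), 51.1 in L1 larvae (38.2 to 67) and 120 in young adults (104 to 139). The L1 interval lay below the other two, by a narrow margin for embryos, and the embryo and young adult intervals overlapped slightly. The young adult level was 2.36-fold that of L1 larvae (1.73 to 3.26) and 1.42-fold that of embryos (1.09 to 1.86). To be called higher or lower, a ratio needed an interval lying wholly beyond 2-fold, and prg-1 was not called in any pair.

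The close copy of that gene, prg-2, followed a steeper course. It had 13 embryo reads, 6 L1 reads and 182 young adult reads, so prg-2 was called higher in young adults than in L1 larvae by 19.2-fold (8.63 to 52.9) and than in embryos by 8.18-fold (4.67 to 15.7). Reads of near-identical copies can be placed on either one, so the division between the pair is uncertain. By that division prg-1 held 86% of the pair's reads in embryos (77.3 to 92.3), 89.7% in L1 larvae (78.8 to 96.1) and 51.6% in young adults (46.4 to 56.8). Summed, the pair was called higher in young adults than in L1 larvae by 4.09-fold (3.1 to 5.49), a call that prg-1 alone did not reach. The uncharacterised gene D2030.12, which overlaps prg-1 on the opposite strand, had 5, 15 and 6 reads from embryo to young adult.

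The gene csr-1 (F20D12.1; chromosome IV, 7957267 to 7962157, plus strand) was the germline gene with the widest range among those seen in every library. It had 11 reads in embryos, 34 in L1 larvae and 192 in young adults. Those are levels of 11.7 RPM (5.83 to 20.9), 33.4 (23.1 to 46.7) and 119 (103 to 137), and no 2 of these intervals overlap. In young adults csr-1 was called higher than in L1 larvae by 3.57-fold (2.47 to 5.3) and than in embryos by 10.2-fold (5.58 to 20.8). Between L1 larvae and embryos the ratio was 2.86 (1.42 to 6.26), which was not called on library totals. It was called with edgeR TMM factors (log2 ratio 2.35) and DESeq2 size factors (2.40). With 11 embryo reads, csr-1 passed the minimum against embryos only through the other library of each pair. The L1 level of csr-1 was 28% of its young adult level, against 8.23% for the sperm genes named above, and the part of those adult transcripts in the L1 value was not tested. The gene frpr-10, which overlaps csr-1 on the same strand, had 0 reads in all 3 libraries.

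The secondary Argonaute gene wago-1 (R06C7.1; chromosome I, 7235384 to 7238792, plus strand) had 144 reads in embryos, 60 in L1 larvae and 376 in young adults. Its level dipped in L1 larvae, at 59 RPM (45 to 75.9), with 153 in embryos (129 to 180) and 233 in young adults (210 to 258). The intervals of the 3 libraries lay apart. In young adults wago-1 was called higher than in L1 larvae by 3.96-fold (3.01 to 5.29). The young adult level was 1.53-fold that of embryos (1.26 to 1.86), and the L1 level was 2.59-fold below that of embryos (1.91 to 3.56), neither of them called. With edgeR TMM factors the young adult library was called higher than the embryo library for wago-1, at a log2 ratio of 1.41.

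The nuclear Argonaute gene hrde-1 (C16C10.3; chromosome III, 4172337 to 4176159, minus strand) had 22 embryo reads, 14 L1 reads and 118 young adult reads. Its levels were 23.4 RPM in embryos (14.6 to 35.4), 13.8 in L1 larvae (7.53 to 23.1) and 73.2 in young adults (60.6 to 87.7). The first 2 intervals overlapped and the young adult interval lay above both. In young adults hrde-1 was called higher than in L1 larvae by 5.32-fold (3.05 to 10). With 14 L1 reads, it passed the minimum there only through young adults. Against embryos the ratio was 3.13 (1.98 to 5.19), just short of a call on library totals, and it was called with edgeR TMM factors at a log2 ratio of 2.42.

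The course of ergo-1 (R09A1.1; chromosome V, 1008803 to 1018352, plus strand) ran the other way. It had 216 reads in embryos, 40 in L1 larvae and 92 in young adults. The levels were 229 RPM in embryos (200 to 262), 39.3 in L1 larvae (28.1 to 53.6) and 57.1 in young adults (46 to 70). The embryo interval lay far above the other two, which overlapped. In L1 larvae ergo-1 was called lower than in embryos by 5.83-fold (4.15 to 8.39), and that call was also made with edgeR TMM and DESeq2 size factors. In young adults ergo-1 was called lower than in embryos by 4.02-fold (3.13 to 5.18), a call that was lost with edgeR TMM factors (log2 ratio -1.20) and DESeq2 size factors (-1.16). The young adult level was 1.45-fold that of L1 larvae (0.992 to 2.16), an interval that includes 1. The gene R09A1.2, which overlaps ergo-1 on the opposite strand, had 4, 0 and 13 reads from embryo to young adult.

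The spermatogenesis Argonaute genes had few reads, nearly all of them from young adults. The gene alg-3 (T22B3.2; chromosome IV, 11704246 to 11708264, plus strand) had 0 reads in embryos, 0 in L1 larvae and 15 in young adults, or 9.31 RPM there (5.21 to 15.4). Its close relative alg-4 (ZK757.3; chromosome III, 9887209 to 9891424, minus strand) had 0 embryo reads, 3 L1 reads and 20 young adult reads, or 12.4 RPM in young adults (7.58 to 19.2). With 15 reads, alg-3 stayed under the minimum of 20 reads in every pair and was not compared. The level of alg-4 in young adults was at least 3.9-fold higher than in embryos when set against the floor of 3 reads there, and the counting interval of the ratio itself begins at 2.89-fold. It entered that comparison through its young adult reads alone, so the call follows in part from the minimum. These 2 genes followed the major sperm protein genes, whose reads were also nearly all from young adults, and the part of sperm content in their levels was not tested.

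Of the somatic genes, alg-1 (F48F7.1; chromosome X, 13949110 to 13956261, plus strand) had 21 reads in embryos, 4 in L1 larvae and 1 in young adults. The levels were 22.3 RPM in embryos (13.8 to 34.1), 3.93 in L1 larvae (1.07 to 10.1) and 0.621 in young adults (0.0157 to 3.46). In young adults alg-1 was called lower than in embryos by 35.9-fold (5.78 to 1486), a range that shows how little a single read fixes. In L1 larvae the level was 5.67-fold below embryos (1.91 to 22.7), which was not called. It passed the minimum of 20 reads through its embryo reads in both pairs. All of its 26 reads were in 1 isoform row, and none of the 4 transcripts that the annotation gives this gene has a row in the table, so its totals may be incomplete.

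The gene rde-1 (K08H10.7; chromosome V, 9987916 to 9991642, minus strand) had 36 embryo reads, 25 L1 reads and 25 young adult reads. Its levels were 38.2 RPM in embryos (26.8 to 52.9), 24.6 in L1 larvae (15.9 to 36.3) and 15.5 in young adults (10 to 22.9). Neighbouring stages overlapped, while the embryo and young adult intervals lay apart. The young adult level of rde-1 was 2.46-fold below that of embryos (1.44 to 4.28), which was not called.

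Set against each other within a library, germline and somatic genes do not depend on how libraries are scaled. The 7 germline genes held 89.2% of the reads of the 9 genes in embryos (86.3 to 91.8, 530 reads), 87.5% in L1 larvae (82.5 to 91.5, 232 reads) and 97.5% in young adults (96.3 to 98.3, 1033 reads). The young adult interval lay above the other two, which overlapped. The somatic side holds no reads of alg-2 and rests in part on alg-1, whose totals may be incomplete, so the germline share may be overstated in each library. Summed over the germline genes, the level was 502 RPM in embryos (458 to 550), 200 in L1 larvae (173 to 229) and 625 in young adults (587 to 665). Summed over alg-1 and rde-1, it was 60.5 RPM in embryos (45.8 to 78.4), 28.5 in L1 larvae (19.1 to 40.9) and 16.1 in young adults (10.5 to 23.6). The germline sum was thus 3.13-fold higher in young adults than in L1 larvae (2.69 to 3.66), while the somatic sum was 1.77-fold lower (1 to 3.12). Against embryos the young adult germline sum was 1.24-fold higher (1.11 to 1.39) and, with edgeR TMM factors, 2.17-fold higher (1.94 to 2.42).

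Within the germline genes the mixture changed as well. Of the reads of the 9 genes, ergo-1 held 40.8% in embryos (36.5 to 45.1), 17.2% in L1 larvae (12.6 to 22.7) and 8.91% in young adults (7.24 to 10.8). In contrast, csr-1 held 2.08% in embryos (1.04 to 3.68), 14.7% in L1 larvae (10.4 to 19.9) and 18.6% in young adults (16.3 to 21.1). The share of hrde-1 was 4.15% in embryos (2.62 to 6.22), 6.03% in L1 larvae (3.34 to 9.92) and 11.4% in young adults (9.55 to 13.5). For prg-1 the shares were 15.1%, 22.4% and 18.8% from embryo to young adult, with intervals that overlapped throughout.

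**Figure D2:**
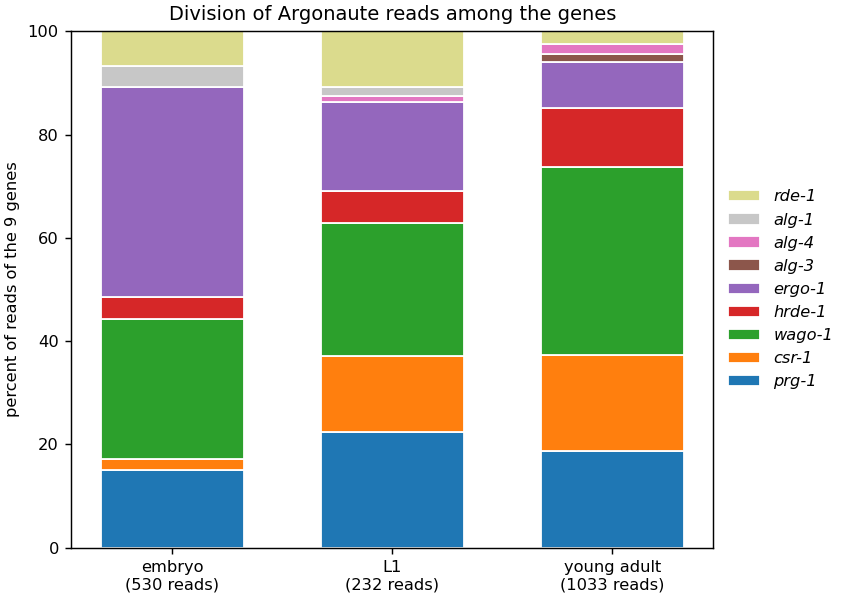
Percent of the reads of the 9 Argonaute genes that belong to each gene, in the embryo, L1 and young adult libraries; each bar sums to 100%. The ergo-1 segment is 8.91% in young adults and 40.8% in embryos, while the csr-1 segment is 18.6% in young adults and 2.08% in embryos.

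Counted over the genes with at least 20 reads in a pair, few Argonaute genes were called between L1 larvae and embryos. Of 7 genes 1 was lower in L1 larvae (ergo-1) and 0 higher, where 33.1% of all 8382 genes compared were lower and 13.4% higher. Their median log2 ratio was -0.75, beside -1.14 for all genes. Of all genes called in this pair 71.2% were lower, against 41.8% with edgeR TMM factors and 40.2% with DESeq2 size factors. These 2 scalings move the median of all genes by 0.87 and 0.92, and under them prg-1, hrde-1 and rde-1 changed sign, at log2 ratios of 0.14, 0.13 and 0.24 with edgeR TMM factors against -0.73, -0.75 and -0.63 on library totals. Relative to the median of all genes, csr-1 stood 2.62 log2 units higher and ergo-1 at -1.39, distances that no scaling of whole libraries can alter.

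Between young adults and L1 larvae, 3 of 7 genes were higher in young adults (csr-1, wago-1 and hrde-1) and 0 lower, where 14.5% of all 8043 genes were higher and 14.2% lower. The median log2 ratio was 1.82, beside 0.32 for all genes. Scaling moved this pair by less than 0.1, with shifts of -0.07 and -0.08, and the same 3 genes were called each time. The L1 level was 42.5% of the young adult level for prg-1, 25.3% for wago-1 and 18.8% for hrde-1. It was 14.6% for the summed germline list and 8.23% for the sperm genes. Of the 1055 RPM of that germline list in young adults, gld-1 alone gave 664. The 3 list genes with most reads were gld-1, daz-1 and him-3. Their L1 levels were 0.0652, 0.278 and 0.248 of their young adult levels. The part of adult transcripts in these L1 levels was not tested.

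Between young adults and embryos, 2 of 8 genes were higher in young adults (csr-1 and alg-4) and 2 lower (ergo-1 and alg-1), where 13.2% of all 8636 genes were higher and 29.3% lower. Of these, csr-1, alg-4 and alg-1 passed the minimum of 20 reads only through the library where they are high, csr-1 having 11 embryo reads. Their calls follow in part from the minimum. The call of ergo-1 does not, with 216 embryo reads and 92 young adult reads. The median log2 ratio was 0.55, beside -0.71 for all genes. Here edgeR TMM factors, which moved the median of all genes by 0.80, gave 4 higher (wago-1 and hrde-1 in addition) and 1 lower (alg-1). With those factors 19.6% of all genes compared were higher and 17.3% lower. Of all genes called in this pair 69% were lower, against 46.9% with edgeR TMM factors and 45.4% with DESeq2 size factors, which moved the median by 0.84. The comparisons share libraries, so they are not independent of one another.

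**Figure D3:**
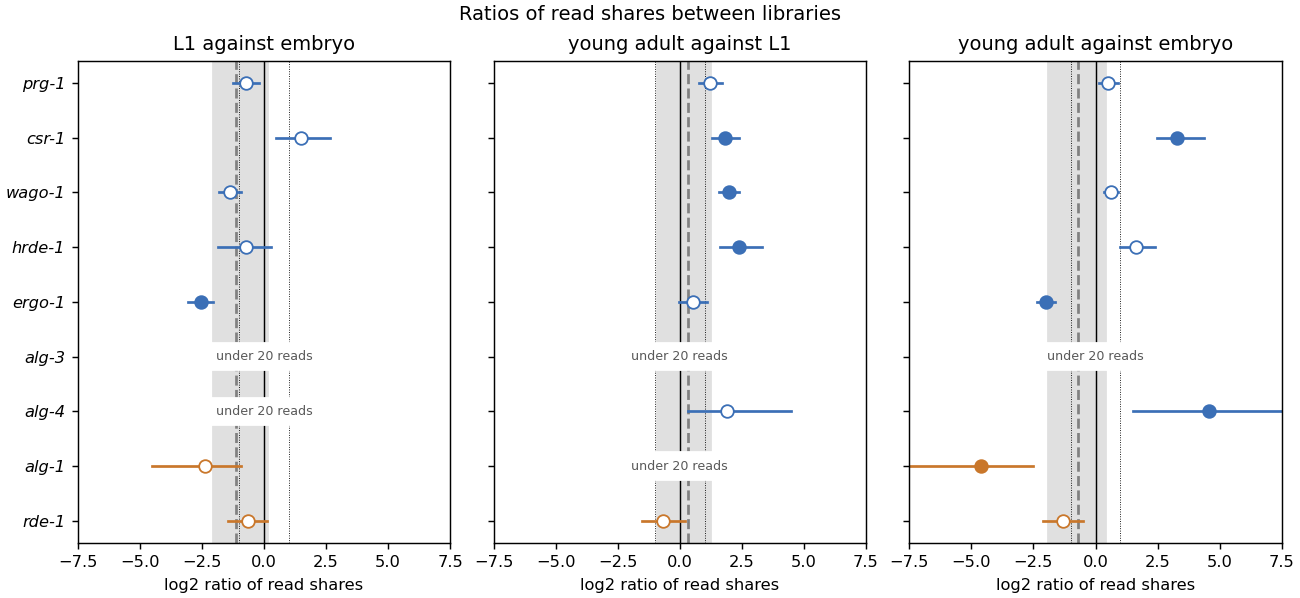
Log2 ratio of read shares of each Argonaute gene (points; log2 scale) with 95% counting intervals (lines, ending at the frame where they run further) for L1 larvae against embryos, young adults against L1 larvae and young adults against embryos; filled points were called, blue is germline and orange somatic. The dashed line and the grey band give the median and the middle 50% of all genes compared, and dotted lines mark 2-fold; csr-1, wago-1 and hrde-1 are filled to the right in the middle panel, and csr-1 and ergo-1 are filled on opposite sides in the right one.

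Isoforms are given by the deposited table as rows, each named by an annotated transcript or by the identifier of a read. The 9 genes had 236 rows, 14 of them annotated and 222 named by a read, whose exon structure the names do not give. Row values are fractional estimates, and library values may be a pooled estimate split by proportion, so shares per library are a description. In all, 51 rows held at least 2 reads in embryos, 20 in L1 larvae and 99 in young adults, an order that also follows the reads of the 9 genes.

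A read-named row led 7 of the 9 genes, and an annotated transcript led csr-1 and alg-4. The leading row of prg-1, which has 41 rows and no annotated one, held 45% of its reads in embryos (33.8 to 56.5), 48.1% in L1 larvae (34 to 62.4) and 51.5% in young adults (44.3 to 58.8). That of wago-1, with 66 rows, held 34.7% in embryos (27 to 43.1), 30% in L1 larvae (18.8 to 43.2) and 41.2% in young adults (36.2 to 46.4). That of ergo-1 held 44%, 45% and 50% from embryo to young adult. In each of these genes the same row led in all 3 libraries, and the intervals overlapped between libraries. Reads of hrde-1 were more spread out, with 19.9% of its pooled reads in the leading row, as were those of rde-1, with 22.6%.

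For csr-1 the annotation has a long and a short form that share their coding end. The coding start of F20D12.1a.1, at 13 exons, lies 1033 bases upstream of that of F20D12.1b.1, at 11 exons, and adds 163 codons at the amino end. The short form F20D12.1b.1, whose annotated transcript begins at its start codon, led in all 3 libraries, with 27.3% of csr-1 reads in embryos (6.02 to 61), 29.4% in L1 larvae (15.1 to 47.5) and 33.3% in young adults (26.7 to 40.5). The long form F20D12.1a.1 had 0 of 192 csr-1 reads in young adults, 0 of 34 in L1 larvae and 0 of 11 in embryos. In that order, the floor of 3 reads allows shares of up to 1.56%, 8.82% and 27.3%. The exact intervals end at 1.9%, 10.3% and 28.5%. Rows named by a read held the rest of the csr-1 reads, and the names do not say at which start they begin. Native RNA is read from its tail, so a read that ends early lacks the start where the forms differ, and the part of such reads was not tested.

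Among the other genes with annotated rows, those rows held 0% of the pooled reads of alg-3, 2.3% of those of wago-1, 21.5% of those of ergo-1 and 53% of those of alg-4. For ergo-1, the full-length R09A1.1a.1 (7 exons) held 16.2% of reads in embryos (11.6 to 21.8), 27.5% in L1 larvae (14.6 to 43.9) and 17.4% in young adults (10.3 to 26.7). The shorter R09A1.1b.1, R09A1.1c.1 and R09A1.1d.1, which begin further downstream, held 7.57, 3.14 and 2.57 reads over the 3 libraries. The transcript C16C10.3.1 held 8.4% of the pooled hrde-1 reads and K08H10.7.1 held 9.84% of those of rde-1. Of the alg-4 reads in young adults, ZK757.3a.1 had 8.33 and ZK757.3a.2 had 2.

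**Figure D4:**
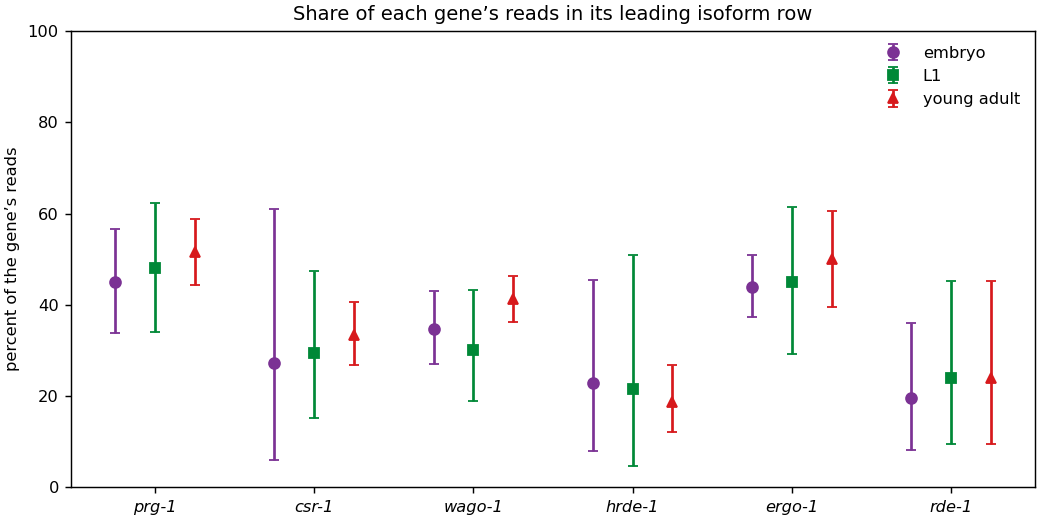
Percent of a gene's reads in its leading isoform row (points) with exact 95% binomial intervals (lines) for the 6 genes with at least 10 reads in every library, by stage. The intervals of the 3 libraries overlap for each gene, and prg-1 lies between 45% and 51.5%.

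The rest of the Argonaute family was read from a list of 13 genes, 9 of which had 20 reads or more in all. Between young adults and L1 larvae 4 of 9 compared genes were higher and 0 lower, where 14.5% of all genes were higher and 14.2% lower. These were prg-2, described above, ppw-1, needed for RNA interference in the germline, at 4.35-fold (2.64 to 7.58), wago-2 at 10.1-fold (3.76 to 38.2), and wago-4, which acts in inherited silencing, at 7.83-fold (3.18 to 24.9). The same genes except ppw-1, together with ppw-2, were higher in young adults than in embryos, 4 of 9 in all with 1 lower, beside 13.2% and 29.3% of all genes. With edgeR TMM and DESeq2 size factors ppw-1 was called there as well. On library totals, the 4 genes called higher in each of these pairs had under 20 reads in L1 larvae or embryos. For wago-2 there were 64 young adult reads and 0 embryo reads. They passed the minimum only through young adults, so these counts follow in part from it. For ppw-2 the reads numbered 3 in embryos, 29 in L1 larvae and 76 in young adults. It was called higher in L1 larvae than in embryos by 8.95-fold (2.77 to 45.9), the same order of stages as csr-1. With 3 embryo reads, ppw-2 passed the minimum there only through L1 larvae.

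The gene nrde-3, whose product carries small RNAs into somatic nuclei and receives them downstream of ERGO-1, had 139 reads in embryos, 11 in L1 larvae and 14 in young adults. It was called lower in L1 larvae than in embryos by 13.6-fold (7.4 to 28) and in young adults than in embryos by 17-fold (9.79 to 31.9). These calls were also made with edgeR TMM and DESeq2 size factors. In each pair nrde-3 passed the minimum only through its embryo reads. Like ergo-1 it had its highest level in embryos, at 148 RPM, with 10.8 RPM in L1 larvae and 8.69 RPM in young adults. The microRNA Argonaute gene alg-5 had 34, 6 and 30 reads from embryo to young adult and was called lower in L1 larvae than in embryos by 6.12-fold (2.54 to 17.8), a call lost with edgeR TMM factors. With 6 L1 reads, alg-5 passed the minimum in that pair only through embryos. The somatic secondary Argonaute gene sago-1 had 29, 39 and 23 reads and vsra-1 had 12, 17 and 31, with no call in any pair. Within the list, sago-2 had 3 reads and wago-10 had 1, and wago-5 and wago-11 had 0 in every library.

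**Figure D5:**
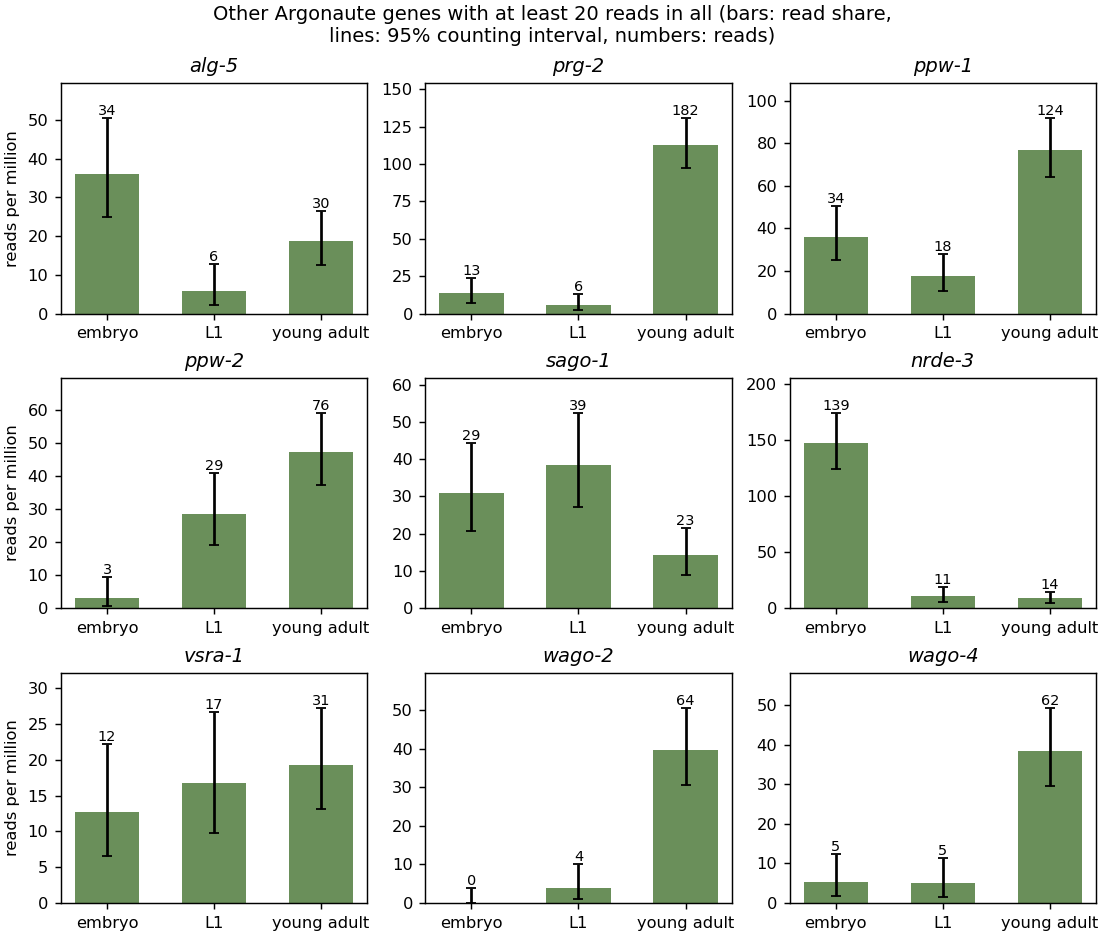
Level in RPM (bars) of the 9 other Argonaute genes that had 20 reads or more in all, by stage, with 95% counting intervals (lines) and reads (numbers); each panel has its own vertical scale starting at 0. The bars of prg-2, wago-2 and wago-4 are tallest in young adults, at 182, 64 and 62 reads, and that of nrde-3 in embryos, at 139 reads.

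Partners of the Argonautes were counted by pathway. Among the genes of the piRNA list, 6 of 12 compared were higher in young adults than in L1 larvae and 0 lower, where 14.5% of all genes were higher. The 3 with most reads were pid-3, at 3.46-fold higher (2.46 to 4.97), tost-1, at 4.69-fold (2.96 to 7.79), and tofu-6, at 6.11-fold (3.81 to 10.4), whose products belong to the PETISCO complex. The same 3 were lower in L1 larvae than in embryos, where 6 of 10 piRNA genes were lower beside 33.1% of all genes. With edgeR TMM factors 2 of 10 were, tost-1 and tofu-6, beside 13.5% of all genes, and the call of pid-3 was lost. In L1 larvae tofu-2, tofu-6 and pid-1 had 16, 19 and 10 reads. All of these passed the minimum of 20 reads against young adults only through young adults. Against embryos, tofu-6 and pid-1 passed it only through embryos. The piRNA counts in both pairs follow in part from the minimum. Between young adults and embryos 1 of 12 was higher, namely prde-1, a factor of piRNA transcription, with 30 reads in young adults and 0 in embryos, where 13.2% of all genes were higher. It is named after its values were seen and passed the minimum only through its young adult reads. With edgeR TMM factors 2 of 12 were higher, beside 19.6% of all genes. The median log2 ratio of the piRNA genes was 1.80 for young adults against L1 larvae and -0.14 for young adults against embryos, beside 0.32 and -0.71 for all genes, and the second changed sign with edgeR TMM factors, to 0.66.

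Germ granule genes, which encode components of the perinuclear bodies that house germline Argonautes, were higher in young adults than in L1 larvae for 7 of 8 genes and higher than in embryos for 5 of 8, with 0 lower, where 14.5% and 13.2% of all genes were higher in these pairs. The P granule gene pgl-1 was higher in young adults than in L1 larvae by 5.16-fold (3.91 to 6.94) and than in embryos by 3.52-fold (2.76 to 4.55). The helicase gene glh-1 was higher in young adults than in L1 larvae by 8.17-fold (5.63 to 12.3) and than in embryos by 9.07-fold (6.05 to 14.2). The gene deps-1 was higher in young adults than in L1 larvae by 3.84-fold (2.46 to 6.26) and was not called against embryos. These named genes, pgl-1, glh-1 and deps-1, had 56, 30 and 23 L1 reads. The other genes called against L1 larvae, pgl-3, glh-2, glh-4 and mip-2, had 12, 7, 14 and 10 reads there. In embryos pgl-3, glh-2 and glh-4 had 12, 9 and 13 reads. In those pairs they passed the minimum only through young adults, so both germ granule counts follow in part from it. Among the 10 germline genes of the marker list, 3 of 8 compared were higher in young adults than in L1 larvae, beside the same 14.5% of all genes, with gld-1 at 15.3-fold (11.3 to 21.2), him-3 at 4.03-fold and daz-1 at 3.6-fold. The ratios of csr-1, wago-1 and hrde-1 in the same pair were 3.57, 3.96 and 5.32. Those of the 8 marker genes compared ran from 1.96 for htp-3 to 15.3 for gld-1. The part of germline content in the Argonaute ratios was not tested.

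In the microRNA list 2 of 9 compared genes were higher in young adults than in L1 larvae and 0 lower, where 14.5% of all genes were higher. In L1 larvae 4 of 8 were lower than in embryos, beside 33.1% of all genes, or 2 of 8 with edgeR TMM factors, beside 13.5%. Of the genes called lower there, xrn-2 had 3 L1 reads and passed the minimum only through embryos. Between young adults and embryos 1 of 9 was higher and 2 lower, beside 13.2% and 29.3% of all genes. The helicase gene cgh-1, which acts with maternal transcripts as well, was higher in young adults than in L1 larvae by 6.32-fold (4.82 to 8.43) and than in embryos by 5.96-fold (4.53 to 7.96). The gene tsn-1, for a nuclease of the silencing complex, was higher in young adults than in L1 larvae by 4.51-fold (3.26 to 6.39), and vig-1 had 706, 524 and 1452 reads from embryo to young adult with no call. The 2 genes lower in young adults than in embryos were ain-1 and ain-2, which encode the scaffold partners of microRNA Argonautes and are named after their values were seen. They had 276 and 229 reads in embryos, 23 and 56 in L1 larvae, and 12 and 83 in young adults. In young adults ain-1 was lower than in embryos by 39.4-fold (22.2 to 77.1), the direction that alg-1 took, and ain-2 by 4.72-fold (3.66 to 6.14). With 12 young adult reads, ain-1 passed the minimum in that pair only through its embryo reads, as alg-1 did.

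The machinery that makes primary and secondary small RNAs was counted in the same way, beside 13.2% of all genes higher and 29.3% lower in young adults than in embryos. Among the genes of Dicer and its enhanced RNA interference partners, 0 of 9 were called in that pair, with no replicate test behind the count, and 1 of 7 was lower in L1 larvae than in embryos (eri-1, an exonuclease gene, at 4.68-fold), or 0 of 7 with edgeR TMM or DESeq2 size factors. The genes with most reads were rde-4, with 72, 26 and 111 reads from embryo to young adult, eri-9, with 54, 23 and 88, and eri-1, with 52, 12 and 55. With 12 L1 reads, eri-1 passed the minimum between L1 larvae and embryos only through embryos. Of 12 amplification and mutator genes, 4 were lower in L1 larvae than in embryos, a share near the 33.1% of all genes. With edgeR TMM factors 0 were, beside 13.5% of all genes. The 4 genes called on library totals, rrf-1, mut-16, rde-12 and nyn-2, had 9, 13, 17 and 13 L1 reads. They passed the minimum only through embryos, so that count follows in part from it. Between young adults and L1 larvae 1 of 12 was higher in young adults, beside 14.5% of all genes. That gene was rde-3, for a nucleotidyltransferase, at 5.1-fold (2.79 to 10.2). With 12 L1 reads, rde-3 passed the minimum there only through young adults. Between young adults and embryos 1 of 12 was lower, mut-16, the scaffold gene of mutator foci, which is named after its values were seen. It had 61 reads in embryos, 13 in L1 larvae and 17 in young adults, a ratio 6.14-fold lower in young adults than in embryos (3.54 to 11.2), and the call was lost with DESeq2 size factors. With 17 young adult reads, mut-16 passed the minimum in this pair only through embryos. In the same list rde-8 had 92, 37 and 128 reads and rde-12 had 66, 17 and 71. Of the nuclear RNA interference genes 1 of 5 was lower in L1 larvae than in embryos, the chromatin gene hpl-2, at 4.84-fold (3.52 to 6.76), a call lost with edgeR TMM and DESeq2 size factors, and 0 of 6 were called between young adults and embryos. The share of all genes lower in L1 larvae than in embryos was 33.1%. The genes nrde-4 and nrde-2 had 65 and 67 reads in embryos, 28 and 24 in L1 larvae, and 82 and 56 in young adults.

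Genes with the most similar course were sought for wago-1 and rde-1, the germline and the somatic gene with most reads. Each gene's 3 levels were divided by their sum, and likeness was the Euclidean distance between such profiles over the 3 libraries, among 5014 genes with at least 100 reads. The nearest to wago-1 were B0250.5, F56A11.5 and tomm-7, at distances of 0.0109, 0.0113 and 0.0126. The nearest to rde-1 were klp-12, vps-32.1 and alx-1, at 0.00282, 0.00361 and 0.00975. Each profile rests on 3 libraries.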

How the data were processed

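The deposited series table gives the authors' estimated counts (fractional reads, not scaled for depth) per isoform row and library. A placeholder of 1e-08 was taken as 0. The authors' per-sample tables, used here for gene names, hold a coverage signal headed Cpm that equals 1.33 times the estimated reads in each library. The submitters' processing notes name minimap2 2.14, and the labels' protocols name MinKNOW 2.1 and Albacore 2.0.1. The genome build, the annotation and the assignment of reads to isoforms are not given in any source used here. Positions and exons come from Ensembl release 115 (WBcel235).

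Counts were summed per gene and rounded. The ratio of 2 read shares has an exact conditional binomial (Clopper-Pearson) 95% interval, computed for all genes with at least 20 reads in a pair. A level has an exact Poisson interval and a share an exact binomial one. Log2 ratios have 0.5 reads added. Intervals and floors cover counting error only. All 10 listed genes are reported as far as analysed. Each pathway list gives its counts and its 3 genes with most reads. The calculation was tested on simulated data. The members, the lists and the tests were chosen with earlier results of these data known. Tools were Python 3.11.15, numpy 2.4.6, pandas 2.3.3, scipy 1.17.1, matplotlib 3.10.9, R 4.3.3, edgeR 4.0.16 and DESeq2 1.42.0, the last pair for scaling factors.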

Additional observations from a re-analysis of the deposited data

How the results depend on the processing

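No paired analysis was possible because each stage is 1 library. With edgeR TMM factors and likewise with DESeq2 size factors, 1 gene became higher in L1 larvae than in embryos (csr-1), against 0 on library totals. Of all genes in that pair, 18.8% and 19.1% were higher with these factors, against 13.4%. With 11 embryo reads, csr-1 passed the minimum there only through L1 larvae. With either set of factors, 4 genes were higher and 1 lower in young adults than in embryos, against 2 and 2. Of all genes in that pair, 19.6% and 20.1% were higher with these factors, against 13.2%. With a minimum of 50 reads the counts of Argonaute genes in that pair were 1 and 1, since alg-4 and alg-1 drop out. Rows of annotated transcripts alone left fewer reads and fewer genes to compare. They gave 0 lower of 1 gene compared between L1 larvae and embryos, and 0 higher of 2 between young adults and L1 larvae. Between young adults and embryos they gave 1 higher and 1 lower of 2. With a bound that only had to pass 1, L1 larvae had 1 gene higher and 4 lower than embryos. At that bound young adults had 5 higher and 0 lower than L1 larvae, and 5 higher and 3 lower than embryos. Shares of all genes at that bound, at a minimum of 50 reads and on annotated rows are not given here. The counts at these settings therefore have nothing to be read against. Without a minimum, and with prg-1 and prg-2 summed (chosen after seeing the data), no count of calls moved by over 1.5 times. No called log2 ratio of an Argonaute gene reversed under these settings.

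The germline share of the reads was 94.7% in embryos on annotated rows alone and 81.8% without ergo-1. Without rde-1 it was 95.7% in embryos, 98.1% in L1 larvae and 99.9% in young adults. Rows detected numbered 94, 46 and 134 from embryo to young adult at 1 read and 18, 7 and 40 at 5 reads. Depth limits the genes with few reads, as in the interval of 1.25-fold to 22.1-fold higher for alg-4 in young adults against L1 larvae.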

Other observations

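Pairs of Argonaute genes with related roles were set against each other within each library, which needs no scaling between libraries. The pairs were chosen after the values were seen, and only the difference between libraries is read, since the shares are not scaled for length. Of the reads of the nuclear Argonaute genes hrde-1 (germline) and nrde-3 (soma), hrde-1 held 13.7% in embryos (8.77 to 20), 56% in L1 larvae (34.9 to 75.6) and 89.4% in young adults (82.8 to 94.1). The embryo interval lay below the L1 interval, which lay below that of young adults. Of the reads of csr-1 and wago-1, csr-1 held 7.1% in embryos (3.6 to 12.3), 36.2% in L1 larvae (26.5 to 46.7) and 33.8% in young adults (29.9 to 37.9), so the embryo library stood apart while the other two overlapped. Of the reads of hrde-1 and wago-1, hrde-1 held 13.3% in embryos (8.5 to 19.4), 18.9% in L1 larvae (10.7 to 29.7) and 23.9% in young adults (20.2 to 27.9). For nrde-3 and ergo-1, both of them highest in embryos, nrde-3 held 39.2% in embryos (34 to 44.4), 21.6% in L1 larvae (11.3 to 35.3) and 13.2% in young adults (7.41 to 21.2).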
